A study of Homo sapiens with 6 samples.

Results

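Integrins and CD44 are the receptors with which epithelial cells hold on to extracellular matrix. Read counts were examined for 10 such genes, taken by symbol from the 60664 gene IDs of the table: the alpha chains ITGA2, ITGA3, ITGA5, ITGA6 and ITGAV, the beta chains ITGB1, ITGB4, ITGB5 and ITGB6, and CD44. All 10 had enough reads to be tested, among 16102 tested genes. The counts came from RNA sequencing of HCT-8, a human colorectal cancer cell line, grown in serum-containing DMEM. HCT-8 cells transfected with a control hairpin plasmid (shNC) were compared with HCT-8 cells transfected with a plasmid carrying a hairpin against PNISR (shPNISR), with 3 libraries in each group. PNISR encodes an arginine and serine rich nuclear protein, and the series asks about its part in alternative splicing. The sources used here do not give the time after transfection, the hairpin sequences or the number of hairpins. The labels do not say whether libraries of a group are separate cultures. The p-values describe the spread between these samples alone, and that spread may be technical.

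An integrin is a pair of chains, 1 alpha and 1 beta, that spans the membrane and couples matrix outside to the cytoskeleton inside. The chain pairing sets the ligand. ITGA2 with ITGB1 binds collagens, ITGA3 with ITGB1 binds laminins, and ITGA5 with ITGB1 binds fibronectin. ITGA6 pairs with ITGB4 in hemidesmosomes, the junctions that tie epithelia to laminin in the basement membrane, and ITGAV pairs with ITGB5 or ITGB6 in receptors for vitronectin, fibronectin or latent TGF-beta. CD44 is a single-chain receptor for hyaluronan, and its variable exons are spliced differently in epithelial and mesenchymal cells. Counts per gene do not separate the splice forms of CD44, nor those of ITGA6, ITGA3 and ITGB4, so only the sum of each gene's forms is described.

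Total counts ran from 15049485 to 17977803 per library. PNISR itself was at 50.2 to 62.8 CPM (reads scaled to a common library size with TMM factors) in shNC and at 18.5 to 27.6 CPM in shPNISR, which is 39.7% of the control level. Its exons share 117 bases with the antisense gene AL513550.1, which had 108 to 141 counts per library. The library shNC 2 stood apart from the other control libraries: its score on the first principal component, which held 44.8% of the variance, was 0.787, against -35.2 and -31.2 for shNC 1 and shNC 3 and 16.9 to 24.6 for shPNISR. Calls that change without it are given beside the results, in most cases with their values. Without it, 7.78% of tested genes were called higher and 4.52% lower. Of 10 colon epithelial markers 8 were expressed well enough to be tested, among them EPCAM, CDH1, KRT8, KRT18, VIL1 and CDX2. KRT20 and GPA33, markers of differentiated colon epithelium, were near 0 (at most 0.434 and 0.331 CPM in any library), so the line carries only part of the labelled cell type's markers.

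Set per kilobase (kb) of exon, so that genes of different length can be compared, the beta chain ITGB1 had the highest level in both groups. In shNC its level was 34.0 ± 2.28 CPM per kb (mean ± SD, n = 3). ITGA6 followed at 21.6 ± 2.32 and ITGB5 at 14.1 ± 1.08 CPM per kb. ITGA5, ITGAV, ITGA3 and ITGB4 had means between 8.25 and 9.79 CPM per kb and each overlapped the next, so no order among these chains can be read in shNC. ITGA5 also overlapped ITGB5 above it, through shNC 2. ITGA2 was lower, at 4.24 ± 0.677 CPM per kb. CD44 stood at 1.66 ± 0.399 and ITGB6 at 0.477 ± 0.133 CPM per kb, the lowest levels of the 10. The exon length of CD44, 10004 bases, is the union over 39 annotated transcripts and counts all variable exons at once, which lowers its value per kb. The other genes are scaled by such unions too, for example ITGA3 by 9802 bases over 16 transcripts and ITGA5 by 7577 over 13. The order between genes therefore depends on these lengths. In shPNISR the order was the same at the top and at the bottom. ITGA5 (14.2 ± 1.30 CPM per kb) and ITGA3 (12.1 ± 1.54 CPM per kb) stood above ITGB4 (9.10 ± 0.929) and ITGAV (8.11 ± 1.26) without overlap, which was not so in shNC. CD44, at 3.02 ± 0.159 CPM per kb, overlapped ITGA2, at 4.12 ± 0.967.

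**Figure D1:**
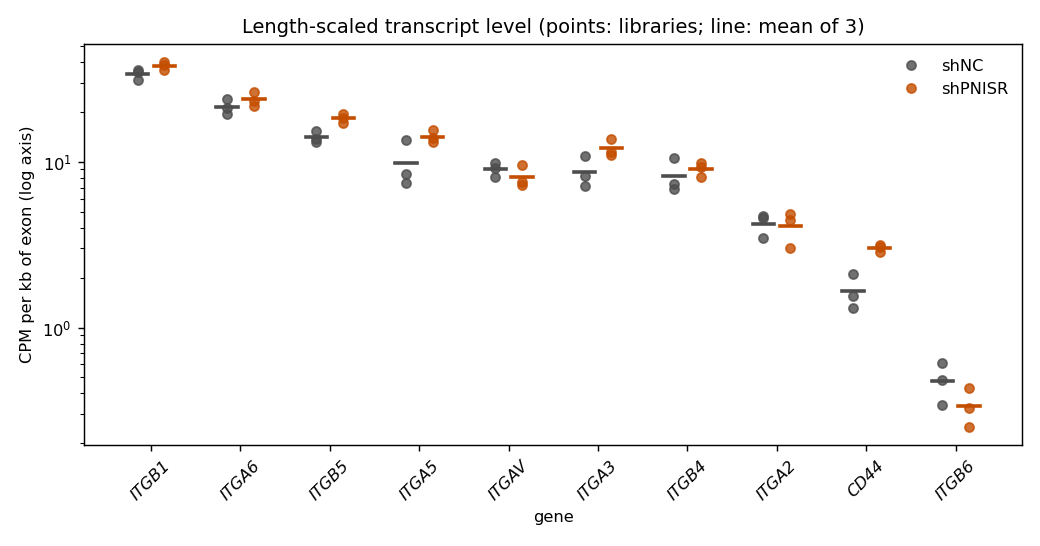
Length-scaled transcript level of each gene (CPM per kb of exon, log axis), ordered by the shNC mean; points are libraries (grey shNC, orange shPNISR) and lines the means of 3. ITGB1 is highest and ITGB6 lowest in both groups, while CD44 has a mean of 1.66 in shNC and 3.02 in shPNISR, with no overlap of its libraries.

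Setting shPNISR against shNC addresses what differs in cells with less PNISR transcript. CD44 rose, and none of the 9 integrin chains among the 10 genes passed the test. By edgeR's quasi-likelihood test, 1 of the 10 genes was higher and 0 were lower at an adjusted p of 0.05, against 2.3% of all tested genes called higher and 0.832% called lower (3.14% in either direction). At an unadjusted p under 0.05 there were 4 (CD44, ITGA3, ITGA5 and ITGB5), all with higher values in shPNISR, which is 40% of the 10 beside 17.8% of all tested genes, and DESeq2 called ITGB5 as well as CD44. The 3 shPNISR libraries did not overlap the 3 shNC libraries for 4 genes (CD44, ITGA3, ITGB5 and ITGB1), against 21.1% of all tested genes. The median log2 fold change was 0.16 over the 10 and -0.01 over all tested genes. Fitted values were above 0 for 7 of the 10 and below 0 for 3, beside 47.9% of all tested genes above 0. In bulk RNA, a change in how many cells express a gene and a change in RNA per cell cannot be told apart.

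In control libraries 1 to 3, CD44 stood at 15.6, 21.0 and 13.2 CPM. In shPNISR libraries 1 to 3 it stood at 30.7, 31.5 and 28.5 CPM. Every shPNISR library lay above every shNC library, and the spread was narrower in shPNISR (30.2 ± 1.59 CPM) than in shNC (16.6 ± 3.99 CPM). Behind these lie 282, 324 and 198 reads in the controls and 519, 508 and 464 in the shPNISR libraries. The fitted log2 change was 0.87 ± 0.16 (SE), a 1.82-fold increase with a 95% interval of 0.53 to 1.20 on the log2 scale (edgeR, adjusted p = 0.00475). Its rank among the fitted changes of all tested genes, from the highest down, was 454. The highest control library was shNC 2, which exceeded the mean of shNC 1 and 3 by 0.55 on the log2 scale, while the shPNISR mean exceeded it by 1.07. Without shNC 2 the log2 fold change was 1.06 (adjusted p = 6.72e-05). CD44 (ENSG00000026508) lies on the plus strand of chromosome 11 at 35138870 to 35232402 in GRCh38. Its antisense gene CD44-AS1 shares 84 bases with its exons and had at most 1 count in any library.

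The RefSeq promoter entry of CD44 is shown for the stretch that held both of its motif matches. It was searched, on both strands, for the letters of 3 motifs in the 250 bases before the RefSeq start: the AP-1 motif (TGANTCA), the TEAD motif (GGAATG) and the GC box (GGGCGG). Positions are counted back from the start, with -1 the last base before it. Among 35116 RefSeq promoters, 6.57% held the AP-1 letters, 11.9% the TEAD letters and 42.6% the GC box. CD44 had 2 GC boxes, at -170 and -152, and neither of the other motifs. All 250 bases of its window lie within an annotated exon of CD44 in GENCODE. The 30 bases below run from -173 to -144 (GRCh38.p14, chr11:35138998-35139027, plus strand), with the GC boxes in capitals.
CD44: acgGGGCGGgggcagaggggcCCGCCCggg

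**Figure D2:**
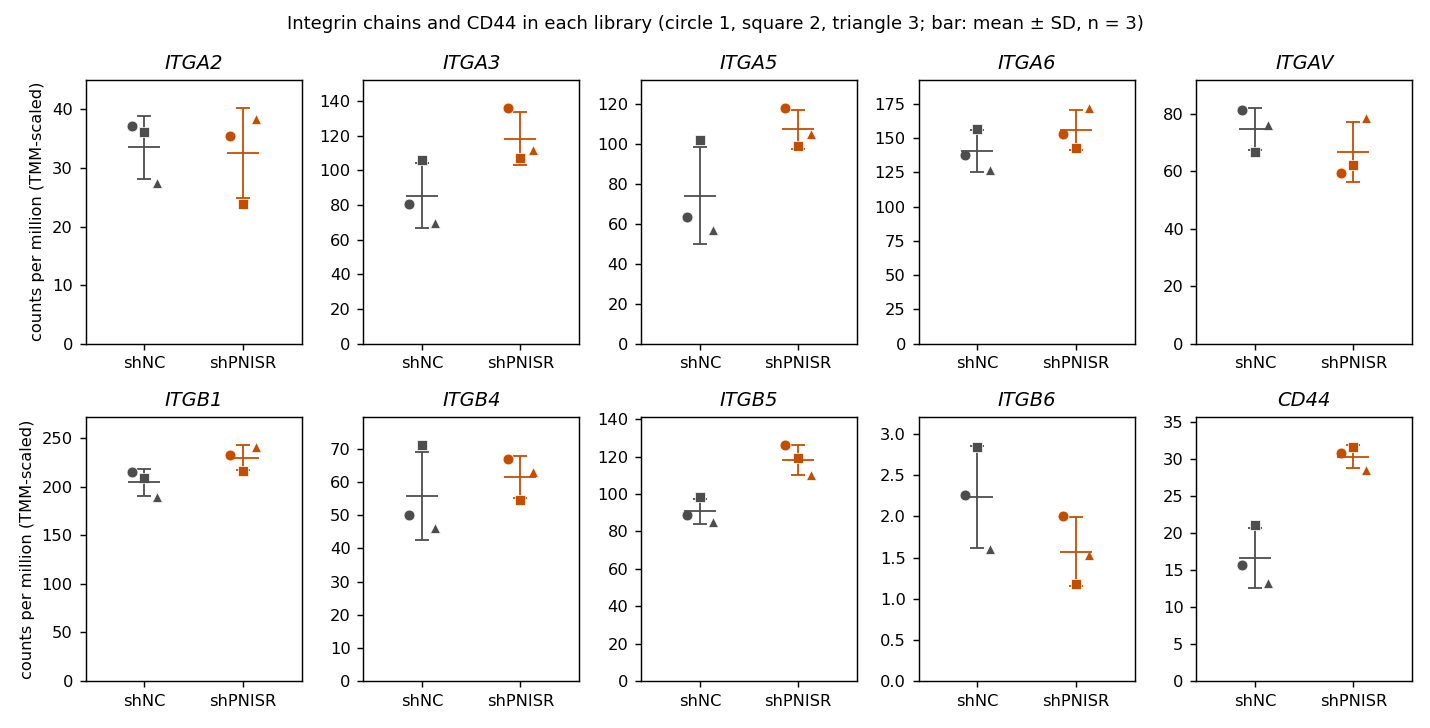
CPM (TMM-scaled) of each gene in every library, with circles, squares and triangles for libraries 1, 2 and 3 and the mean ± SD as a bar (n = 3). CD44, ITGB5, ITGA3 and ITGB1 do not overlap between groups, ITGA3 and ITGB1 by a narrow margin, and the shNC 2 square is the highest control point for CD44, ITGA3, ITGA5, ITGA6, ITGB4, ITGB5 and ITGB6.

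Of the laminin receptor chains ITGA3, ITGA6 and ITGB4, ITGA3 had the largest fitted difference between groups. Its control libraries held 80.6, 106 and 69.7 CPM and its shPNISR libraries 136, 107 and 112 CPM. The groups met at their edges, with shNC 2 just under shPNISR 2. The change of 0.47 ± 0.14 on the log2 scale did not pass (95% interval 0.17 to 0.77, adjusted p = 0.0857). Without shNC 2, the highest control library for ITGA3, the change was 0.65 and passed (adjusted p = 0.00196). It did not pass with any other single library left out (adjusted p from 0.0771 to 0.348). It also passed when low counts were not filtered (adjusted p = 0.0077), at the same log2 value of 0.47. In that fit adjusted p fell for PNISR too, from 8.73e-05 to 3.76e-18, at log2 values of -1.33 and -1.34. The reason was not tested. ITGA3 (ENSG00000005884) is on the plus strand of chromosome 17 at 50055968 to 50090481.

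ITGA6 values were 138, 157 and 127 CPM in the controls and 153, 143 and 172 CPM after PNISR knockdown. Those of ITGB4, its hemidesmosome partner, were 50.0, 71.1 and 46.3 CPM, then 66.9, 54.6 and 63.1 CPM. For both chains the groups overlapped, with shNC 2 inside or above the shPNISR range. The log2 fold changes were 0.15 (95% interval -0.09 to 0.39, adjusted p = 0.538) for ITGA6 and 0.14 (-0.17 to 0.46, adjusted p = 0.662) for ITGB4. Neither passed, and the intervals bound a rise at 0.39 and 0.46 on the log2 scale. ITGA6 (ENSG00000091409) is on chromosome 2 at 172427354 to 172506282, plus strand, and ITGB4 (ENSG00000132470) on chromosome 17 at 75721328 to 75757818, plus strand. ITGB4 lies across GALK1 on the opposite strand with no shared exon bases. GALK1 had 736 to 1110 counts, so unspliced reads of either gene could be mixed if counting ignored strand, and no source used here gives the strand setting.

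ITGA5, the fibronectin receptor chain, had the largest fitted increase of the 9 integrin chains. The controls had 63.6, 102 and 56.9 CPM and the shPNISR libraries 118, 99.0 and 105 CPM. Only shNC 2 reached the shPNISR range. On the log2 scale the change was 0.54 ± 0.18 (95% interval 0.14 to 0.94), and it did not pass (adjusted p = 0.149). It passed without shNC 2 (0.83, adjusted p = 0.000141) but not with any other single library left out (adjusted p from 0.155 to 0.473). It also passed when low counts were not filtered (adjusted p = 0.00141), at a log2 value of 0.53. That is the fit in which the adjusted p of PNISR fell as well. The library shNC 2 lay 0.76 above the mean of the other control libraries, close to the 0.83 of the shPNISR mean. ITGA5 (ENSG00000161638) spans 54395261 to 54419460 of chromosome 12, minus strand. ITGB1, the beta chain that ITGA2, ITGA3 and ITGA5 share, had 215, 209 and 189 CPM in the controls and 232, 216 and 241 CPM in shPNISR. The groups did not overlap, but the difference was small, 0.17 on the log2 scale (95% interval -0.05 to 0.39, adjusted p = 0.431). ITGB1 (ENSG00000150093) spans 32900319 to 33005792 of chromosome 10, minus strand. ITGA2, the collagen receptor chain (ENSG00000164171, chromosome 5, 52989326 to 53094779, plus strand), was at 37.1, 36.1 and 27.4 CPM and 35.4, 23.9 and 38.4 CPM. Its libraries were mixed, with shPNISR 2 the lowest and shPNISR 3 the highest of all, and its log2 fold change was -0.04 (95% interval -0.40 to 0.32, adjusted p = 0.926).

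Of the ITGAV receptors, ITGB5 came nearest to the threshold. It ran at 88.8, 98.3 and 84.8 CPM in control libraries and at 126, 119 and 110 CPM in shPNISR libraries. All shPNISR libraries lay above all shNC libraries, including shNC 2. The change was 0.38 ± 0.11 on the log2 scale (95% interval 0.15 to 0.61, adjusted p = 0.0643). It passed with upper-quartile scaling (adjusted p = 0.0483), with DESeq2 (0.0394) and without shNC 2 (0.44, adjusted p = 0.0156). It did not pass with any other single library left out (adjusted p from 0.084 to 0.276). ITGAV itself went from 81.2, 66.7 and 75.9 CPM to 59.2, 62.1 and 78.4 CPM, with shPNISR 3 inside the control range. Its log2 fold change was -0.16 (95% interval -0.43 to 0.10, adjusted p = 0.536). ITGB6, the epithelial beta chain best known for activating latent TGF-beta, was low, with 2.26, 2.85 and 1.6 CPM in the controls and 2.01, 1.18 and 1.53 CPM in the shPNISR libraries. The groups overlapped, and with 19 to 44 reads per library its interval was the widest of the 10 (log2 fold change -0.50, 95% interval -1.16 to 0.16, adjusted p = 0.425). ITGB6 also shares 966 exon bases, 20.61% of its exon length, with AC092153.1 on the same strand, which had 0 counts in all 6 libraries. ITGB5 (ENSG00000082781) is on chromosome 3 at 124761948 to 124901418, ITGB6 (ENSG00000115221) on chromosome 2 at 160099666 to 160200313, both on the minus strand, and ITGAV (ENSG00000138448) on chromosome 2 at 186590065 to 186680901, plus strand.

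ITGB5 was the integrin chain nearest to the threshold, and the promoter entry of its outermost start is shown beside that of CD44. GC boxes were also found for chains with small fitted differences, 4 for ITGA2 and 3 at a start each of ITGA6 and ITGB1. ITGA5 had 1, and ITGAV and ITGB6 had none. The TEAD letters were found for ITGA5 at -82 and for ITGB1 at -182. No link between motif letters and fitted changes was tested. The window of another ITGB5 start held 3 GC boxes, at -169, -139 and -17, and that of the remaining ITGB5 start held no motif letters. Its outermost RefSeq start of 3 had no AP-1 or TEAD letters and 2 GC boxes in the 250 bases before it (GRCh38.p14, chr3:124901419-124901668, minus strand, GC boxes in capitals).
ITGB5: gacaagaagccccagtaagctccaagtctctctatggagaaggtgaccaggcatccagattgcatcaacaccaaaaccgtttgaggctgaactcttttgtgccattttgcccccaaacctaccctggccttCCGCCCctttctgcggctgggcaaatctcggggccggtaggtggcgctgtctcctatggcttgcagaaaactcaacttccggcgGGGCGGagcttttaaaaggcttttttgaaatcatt

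**Figure D3:**
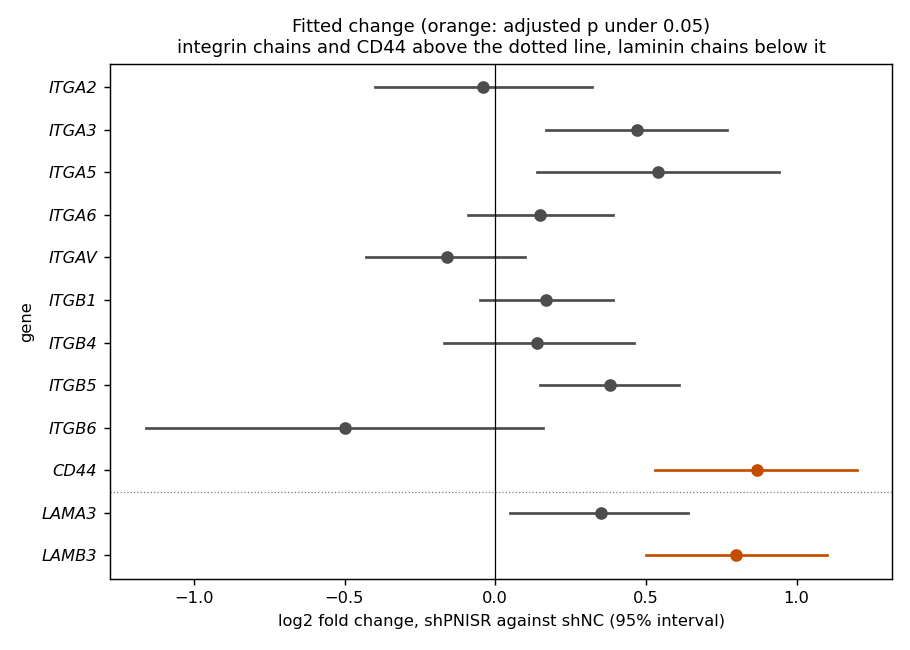
Fitted log2 fold change of shPNISR against shNC (point) with its 95% interval (line) for the integrin chains and CD44 and, under the dotted line, for the laminin chains LAMA3 and LAMB3; orange marks an adjusted p under 0.05. CD44 and LAMB3 pass, while the intervals of ITGA3, ITGA5, ITGB5 and LAMA3 stay above 0 without passing the adjusted test.

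Integrins with more G and C in their transcripts tended to have higher fitted values, but the ranges overlapped. The part of base composition in these values was not tested beyond the correction below. The 4 integrins whose transcripts held over 50% G and C (ITGB5, ITGA5, ITGA3 and ITGB4, 54.6% to 62.9%) had log2 fold changes of 0.14 to 0.54. The 5 between 39.0% and 43.2% (ITGAV, ITGB1, ITGB6, ITGA2 and ITGA6) lay between -0.50 and 0.17. ITGB4 had the most G and C but, at 0.14, lay below ITGB1 and ITGA6. CD44, at 47.0%, was above both ranges. When every library was corrected for GC content and gene length, CD44 was at 0.96 (adjusted p = 0.00204), ITGA5 at 0.46 (0.103), ITGA3 at 0.38 (0.0721) and ITGB5 at 0.31 (0.0841). ITGB4 moved to -0.03 and ITGAV to 0.01. The other chains with less G and C moved up, ITGB1 to 0.3, ITGA6 to 0.24, ITGA2 to 0.09 and ITGB6 to -0.41. After the correction ITGB1 thus lay close to ITGB5, and both ITGB1 and ITGA6 lay above ITGB4. With shNC 2 also left out, an alternative chosen after seeing the data, 6 of the 10 passed, all higher. They were CD44 (1.13), ITGA5 (0.70), ITGA3 (0.49), ITGA6 (0.34), ITGB1 (0.34) and ITGB5 (0.33). In that setting calls were more frequent over all tested genes too, with 6.86% higher and 7.71% lower.

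**Figure D4:**
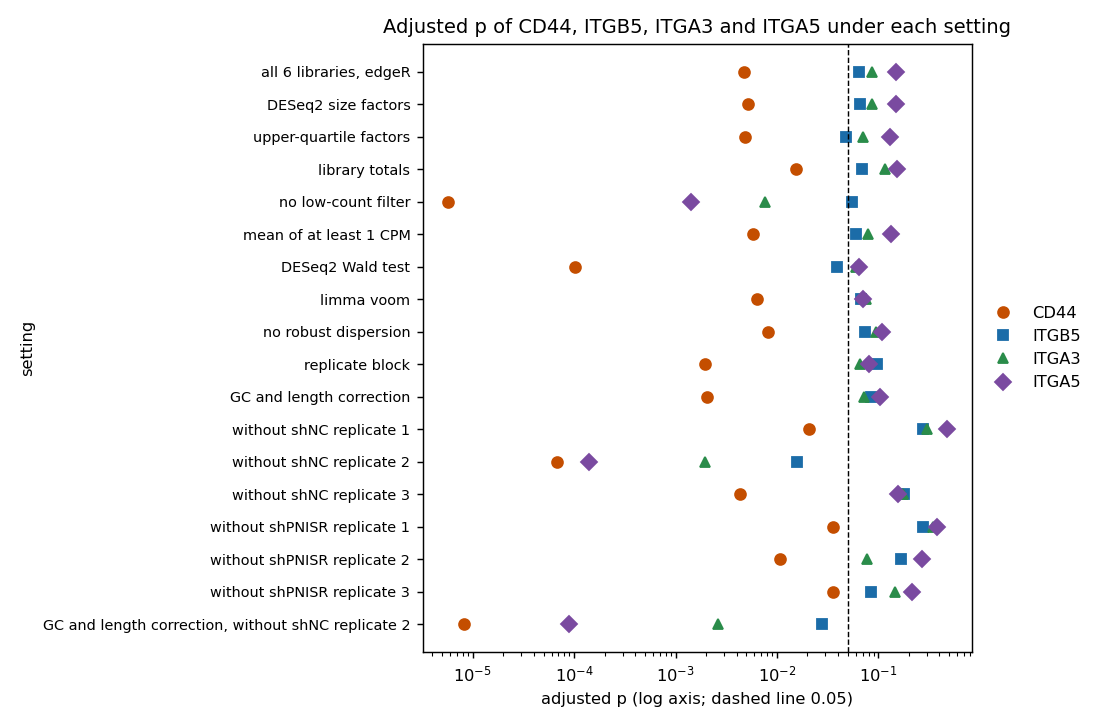
Adjusted p (log axis, dashed line at 0.05) of CD44, ITGB5, ITGA3 and ITGA5 in the fit with all 6 libraries and under 17 other settings. CD44 lies left of the line in every row, up to 0.0359, while the 3 integrins cross it in 3 or 4 rows each, among them the one without shNC 2.

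The ratio of chains within a library does not depend on how libraries are scaled. It was tested for 8 pairs of chains that either form an integrin together or share a partner chain. The test was an exact permutation test, two-sided, where 3 against 3 libraries cannot give a p below 0.1 and so cannot pass 0.05. The ITGA6 to ITGB4 log2 count ratio was 1.36 ± 0.18 in shNC and 1.34 ± 0.13 in shPNISR (difference -0.01, exact p = 0.8, adjusted p = 0.914). The ratio of ITGB6 to ITGB5, beta chains that share the partner ITGAV, was the only one whose groups did not overlap. It was at -5.28, -5.09 and -5.70 in shNC and -5.94, -6.62 and -6.14 in shPNISR. Its difference was -0.88, lower in 3 of 3 shPNISR libraries, at the smallest p the design allows (exact p = 0.1, adjusted p = 0.48 over the 8 pairs). The ITGB6 side of this ratio rests on 19 to 44 reads per library. The ITGAV to ITGB5 ratio went from -0.28 ± 0.24 to -0.84 ± 0.31 (exact p = 0.2, adjusted p = 0.48), with shPNISR 3 at -0.49 beside shNC 2 at -0.56. Relative to ITGB1, ITGA5 differed by 0.41 and ITGA3 by 0.32, and ITGA2 by -0.23 (exact p = 0.3, adjusted p = 0.48 for each). ITGB4 to ITGB1 differed by -0.01 (exact p = 1.0, adjusted p = 1.0) and ITGAV to ITGB6 by 0.32 (exact p = 0.5, adjusted p = 0.667).

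As a share of all 18 alpha chains, in CPM per kb, the 5 alpha chains described here made up 83.0 ± 1.82% in shNC and 83.8 ± 0.819% in shPNISR. ITGA6 was the largest part, at 33.6 ± 0.212% and 32.1 ± 1.44%. ITGA5 took 13.4%, 18.7% and 13% of the sum in the control libraries and 20.4%, 19.2% and 17.7% in the shPNISR libraries. ITGAV took 15.7%, 11.2% and 16.0% and then 9.44%, 11.1% and 12.1%. In both chains shNC 2 sat with or beside the shPNISR libraries. Of the 8 beta chains, ITGB1, ITGB4, ITGB5 and ITGB6 made up 98.7 ± 0.126% and 98.6 ± 0.162%, with ITGB1 alone at 59.2 ± 2.81% and 57.1 ± 1.87%. These shares depend on the same union exon lengths, and they are described and were not tested.

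**Figure D5:**
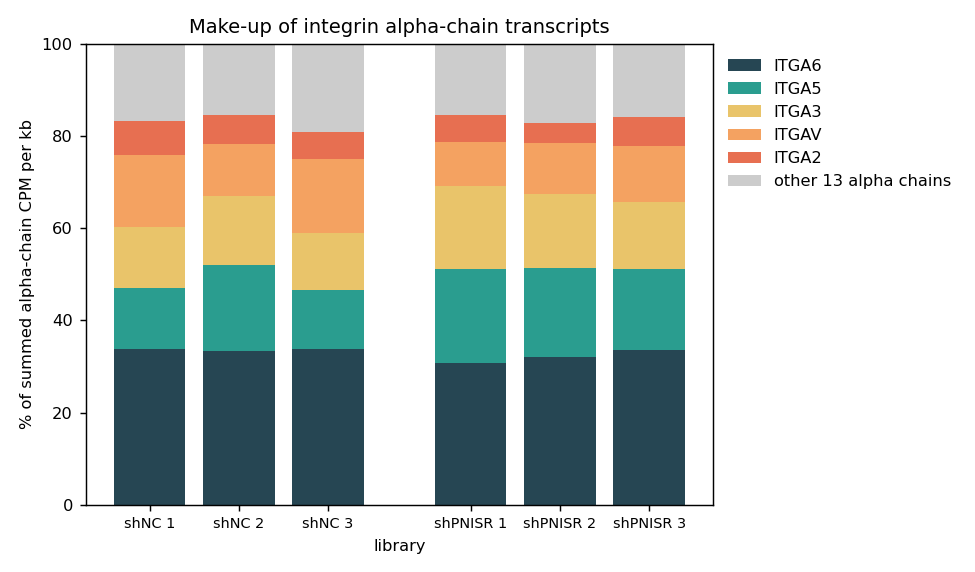
Share of each alpha chain in the summed alpha-chain level (CPM per kb) in every library. ITGA6 holds about the same share throughout (30.7% to 33.7%), and shNC 2 resembles the shPNISR libraries in its shares of ITGA5 and ITGAV.

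The remaining 17 integrin chains were mostly low. Of these 14 were tested, 1 was higher and 0 were lower, and without shNC 2 the counts were 3 and 1. ITGAX, a chain best known from myeloid cells, rose from 6.72 ± 1.78 to 12.8 ± 2.97 CPM (log2 fold change 0.93 ± 0.21, adjusted p = 0.0236). Its call ended with scaling by library totals (adjusted p = 0.055) and without shNC 1 (0.0736), shPNISR 1 (0.0681) or shPNISR 3 (0.125). Without shNC 2, ITGA7 (0.60, adjusted p = 0.018) and ITGA11 (1.43, adjusted p = 0.00732) were also called higher and ITGA8 lower (-0.59, adjusted p = 0.047), chains named after their values were seen. With all libraries ITGA8 was at 10.4 ± 0.19 and 6.91 ± 1.27 CPM without overlap and did not pass (-0.59, adjusted p = 0.0909). The partner of ITGAX, ITGB2, named after its values were seen, averaged 3.49 CPM in the controls and 4.37 CPM in shPNISR and did not pass (adjusted p = 0.465). Leukocyte markers summed to 24.3 to 31.9 CPM in control libraries and 33.2 to 34.5 CPM in shPNISR libraries, with 5 of 12 tested, 1 lower (LYZ, 1.21 to 0.287 CPM, adjusted p = 0.0337), and PTPRC and TYROBP at 0 in all libraries. Most of this sum came from CORO1A (mean 17.2 CPM in shNC and 19.8 in shPNISR) and LCP1 (6.29 and 8.12 CPM), and neither passed. The 10 fibroblast markers summed to 26.1 to 36.4 and 41.8 to 45.5 CPM, with 6 tested, 1 higher (ACTA2, 0.68, adjusted p = 0.0248), and COL1A2 and FAP at 0. Most of that sum came from COL1A1 (mean 16.2 CPM in shNC and 23.1 in shPNISR, not passed) and ACTA2 (9.85 and 15.7 CPM). The 7 endothelial markers summed to 0.718 to 1.55 and 1.47 to 1.66 CPM, with only VWF tested and TEK at 0. Epithelial markers summed to 4350 to 4960 and 4850 to 6090 CPM, and 2 of 8 rose (CDH17, 1.32, and KRT19, 0.61). The call of KRT19 ended in 5 of the 17 alternatives (adjusted p up to 0.169), that of ACTA2 in 4 of 17 (up to 0.143) and that of LYZ in 4 of 16 (up to 0.189), in each case including every one that left out a shPNISR library. Without shNC 2, CD14 among the leukocyte markers and COL1A1 and PDGFRB among the fibroblast markers were also called higher. The part of these marker levels in the values of CD44, ITGAX and the other integrins was not tested.

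Among the ligands, LAMB3 rose. It encodes the beta chain of the epithelial laminin that ITGA3 and ITGA6 receptors bind. Of 17 laminin and basement membrane genes, all tested, 0 fell, and the median log2 fold change was 0.08. LAMB3 had 40.9, 56.1 and 37.3 CPM in the controls and 83.0, 79.1 and 71.5 CPM in the shPNISR libraries, without overlap (log2 fold change 0.80 ± 0.14, adjusted p = 0.00406). Its call ended in none of the 17 alternatives. Without shNC 2, LAMB2 (0.41, adjusted p = 0.0243) and AGRN (0.45, adjusted p = 0.0277), named after their values were seen, were also called higher. LAMA3, the alpha chain of the same trimer and named after its values were seen, was at 39.2, 39.7 and 30.2 CPM and 49.0, 38.7 and 51.1 CPM and did not pass (0.35, adjusted p = 0.203). LAMB3 (ENSG00000196878) is on chromosome 1 at 209614870 to 209652466, minus strand.

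Of 20 other genes for matrix proteins and further ligands 17 were tested. Beside 2.3% of all tested genes called higher and 0.832% called lower, 3 of these 17 rose and 0 fell. They were L1CAM, an adhesion protein that binds integrins (4.91 ± 2.24 to 13 ± 0.882 CPM, log2 fold change 1.41, adjusted p = 0.00406), TNC, the matrix protein tenascin C (12.8 ± 2.32 to 22.4 ± 3.89 CPM, 0.81, adjusted p = 0.0136), and TGFB1, whose latent form ITGAV receptors bind (87.0 ± 16.0 to 131 ± 6.95 CPM, 0.59, adjusted p = 0.0128). The calls of TNC and TGFB1 ended without shPNISR 1 (adjusted p = 0.118 and 0.0929) or shPNISR 3 (0.084 and 0.0564), and that of TGFB1 also without shNC 1 (0.0951). Without shNC 2 the count was 4, with COL1A1 added (0.71, adjusted p = 0.00396). FN1, the main ligand of ITGA5 and named after its values were seen, averaged 41.5 CPM in the controls and 46.1 CPM in shPNISR (0.15, adjusted p = 0.811). None of the 4 other hemidesmosome genes passed. CD151, a tetraspanin that binds ITGA3 and ITGA6, had 175, 176 and 187 CPM in the controls and 242, 250 and 214 CPM in the shPNISR libraries (0.39, adjusted p = 0.0521). CD151 passed in 6 of the 17 alternatives, among them the one without shNC 2 (0.38, adjusted p = 0.0397). It stood at 0.19 once GC content and length were corrected for (adjusted p = 0.322). PLEC, which links ITGB4 to keratin filaments, was at 216 ± 42.6 and 257 ± 58.6 CPM (adjusted p = 0.496).

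Inside the cell, 1 of 27 integrin adaptors and kinases fell and 0 rose, with a median log2 fold change of 0.05. LIMS1, a scaffold that joins integrin-linked kinase to its partners, had 85.3, 69.0 and 80.0 CPM in the controls and 52.1, 52.2 and 61.9 CPM in the shPNISR libraries. The groups did not overlap (log2 fold change -0.50 ± 0.12, adjusted p = 0.0319), but the call ended with library totals (adjusted p = 0.0646) and without shNC 1 (0.194) or shPNISR 1, 2 or 3 (0.199, 0.108 and 0.0515). Without shNC 2, 3 of the 27 were called higher (PXN, ZYX and TNS1, 0.37 to 0.55) beside LIMS1 lower. Around CD44, 0 of 15 tested partners and hyaluronan genes passed. Without shNC 2 the number was 2, HYAL1 (1.69, adjusted p = 0.000827) and MMP14 (0.78, adjusted p = 0.000921), both higher. It was also 2 with low counts kept in, and 3 when the GC and length correction was applied without shNC 2. EZR, which ties the CD44 tail to actin, was at 341 ± 33.1 and 417 ± 44.7 CPM (0.29, adjusted p = 0.2), and the scaffold IQGAP1 at 269 ± 36.1 and 244 ± 23.6 CPM (-0.14, adjusted p = 0.571). Of 12 RNA-binding regulators of CD44 splicing 0 passed, and the median was -0.11. A fitted value below 0 was found for 9 of the 12, beside 8390 of all 16102 tested genes. YBX1 and HNRNPA1, named for their CPM, were at 1940 ± 112 and 1940 ± 180 CPM (0.00, adjusted p = 0.999) and at 2100 ± 115 and 2030 ± 178 CPM (-0.05, adjusted p = 0.871). ESRP1 and ESRP2, epithelial regulators that favour the variable exons of CD44 and were named after their values were seen, averaged 3.76 and 51.7 CPM in the controls and 3.94 and 46.5 CPM in shPNISR (adjusted p = 0.909 and 0.568). Without shNC 2, 4 of the 12 regulators (SRSF1, TRA2B, DDX5 and DDX17) were called lower, by -0.55 to -0.36 on the log2 scale.

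The pattern most like that of CD44 over the 6 libraries was that of LAMB3. Likeness was measured as the root mean square difference of log2 CPM, each gene centred on its own mean, over 10166 other genes with a symbol and a mean of at least 10 CPM. It was 0.0589 for LAMB3, 0.0637 for NOS3 and 0.0653 for NXPH4, against a median of 0.521. NOS3 encodes an endothelial-type nitric oxide synthase and had 7.34, 9.19 and 5.86 CPM in the controls and 13, 13.1 and 12 CPM in the shPNISR libraries. The call of NOS3 (0.76, adjusted p = 0.0298) ended in 7 of the 17 alternatives, with adjusted p up to 0.137. NXPH4, a neurexophilin, was at 12.1, 14.4 and 10.3 CPM and 22.6, 22.9 and 21.0 CPM. As in CD44, shNC 2 was the highest control library and shPNISR 3 the lowest shPNISR library in all of them. That order follows from choosing the genes by likeness over the same 6 libraries and is no separate result. LAMB3 has 3 RefSeq starts, and the outermost is shown up to the first base of its annotated transcripts (209 bases, GRCh38.p14, chr1:209652467-209652675, minus strand). It held 1 GC box, in capitals, and no AP-1 or TEAD letters, while the window of another LAMB3 start held the AP-1 letters at -67.
LAMB3: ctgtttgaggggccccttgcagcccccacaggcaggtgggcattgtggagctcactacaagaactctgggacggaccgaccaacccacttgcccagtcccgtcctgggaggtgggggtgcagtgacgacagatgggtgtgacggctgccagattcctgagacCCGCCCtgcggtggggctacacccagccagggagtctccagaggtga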

How the data were processed

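RNA of 3 shNC and 3 shPNISR libraries of HCT-8 cells was measured. The deposited table holds raw read counts per Ensembl gene ID. Per the submitters' processing notes, HISAT2 2.0.4 and GRCh38 were used; the sources used here give no counter, annotation or strand setting. Columns were matched to libraries by name, and no library repeated another within sampling noise. After filterByExpr (minimum count 10, total 15) and TMM scaling, edgeR 4.0.16 (R 4.3.3) gave two-sided p-values from its quasi-likelihood test with robust dispersion, adjusted after Benjamini and Hochberg over 16102 genes. SE and 95% intervals come from the fold change and the F statistic. Ratios of chains that pair or share a partner (0.5 counts added) were tested with an exact permutation test (scipy 1.17.1). Positions, exon length and GC content came from GENCODE release 29, symbols from a reference table (60652 of 60664 IDs), and promoters from RefSeq (8 of the 10 genes; ITGA3 and ITGB4 had no entry). The fit was also run on simulated data in which libraries of a group differed only at random. That run cannot show how the fit behaves with a shifted library such as shNC 2. Figures used matplotlib 3.10.9. The genes, lists and tests were chosen with earlier results of these data known. Named are the 10 genes, PNISR, in every list at most 3 called genes, by smallest adjusted p (at most 2 with the highest CPM where none passed), and the 3 genes most like CD44; others were named after their values were seen. In the laminin and basement membrane list, not every gene this rule names is reported here. The alternatives were other scalings, filters and tests (DESeq2 1.42.0, limma 3.58.1), dispersion without robust fitting, a block for replicate number, a loess correction (span 0.4) for GC content and length, and leaving out each library.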

Additional observations from a re-analysis of the deposited data

How the results depend on the processing

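CD44 passed with a higher value in all 17 alternatives, with log2 fold changes from 0.73 to 1.13 and adjusted p up to 0.0359, and ITGB6 was lower without passing in all 17. Of the 10 genes, the number called higher was 1 with all libraries and rose to 2 with upper-quartile factors and with DESeq2, to 3 with no low-count filter (CD44, ITGA3 and ITGA5), to 6 with the GC and length correction without shNC 2, and ranged from 1 to 4 with 1 library left out. The number called lower was 0 throughout. Over all genes, 371 were called higher and 134 lower. Leaving out 1 library gave 133 to 1284 higher and 30 to 746 lower. No low-count filter gave 642 and 354, which is 2.17% and 1.2% of the 29618 genes tested there. The GC and length correction without shNC 2 gave 1124 and 1263, which is 6.86% and 7.71% of tested genes. Library totals gave 71 lower and DESeq2 229 lower. With 1 library left out, log2 values ranged from -0.18 to 0.13 for ITGA2, -0.12 to 0.01 for HNRNPA1, -0.12 to 0.06 for the ITGA6 to ITGB4 ratio and -0.11 to 0.17 for the ITGB4 to ITGB1 ratio. ITGA2 changed sign with the GC and length correction (0.09, and 0.15 without shNC 2 as well) and without shNC 1 (0.04), shNC 2 (0.01) or shPNISR 2 (0.13), ITGAV (0.01) and ITGB4 (-0.03) with the correction, HNRNPA1 with the correction (0.02, and 0.06 without shNC 2) and without shPNISR 3 (0.01), and IQGAP1 with the correction without shNC 2 (0.08). The ITGA6 to ITGB4 ratio difference changed sign without shNC 1 (0.04), shNC 3 (0.04) or shPNISR 1 (0.06), and that of ITGB4 to ITGB1 without shNC 2 (0.17), shPNISR 2 (0.03) or shPNISR 3 (0.01). None of these sign changes involved a called gene, and the cause was not tested. The groups share replicate numbers, but same-numbered libraries did not deviate together over genes (r of 0.12, -0.08 and -0.15), so the numbers were not taken as pairs; with the replicate block 390 genes were higher and 118 lower, 1 of the 10 among them, CD44. Depth limits ITGB6, with 19 to 44 reads per library, more than the other chains, each of which had at least 386, and CD44 had 198 to 519.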
